A study of Mus musculus with 7 samples.

Results

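The C1q-negative monocytes and granulocytes were 113 of the 15047 cells (0.751%) recovered from control mammary tumors of 7 mice. A cell was a Drop-seq barcode with 200 to 6000 detected genes. Drop-seq captures the messenger RNA of single cells on barcoded beads and counts molecules by their unique molecular identifiers (UMIs). A member held 0 UMIs of the complement genes C1qa, C1qb and C1qc, and at least 3 UMIs summed over the myeloid genes Lyz2, S100a8, S100a9, Ccl6 and Plac8. It also held at least 1 UMI of the signalling adaptors Tyrobp or Fcer1g. At most 1 UMI of the epithelial genes Epcam, Krt8 and Krt18 was allowed, with 0 of the T-cell genes Cd3d, Cd3e, Cd3g and Trac and fewer than 5 over the MHC class II genes H2-Aa, H2-Ab1, H2-Eb1 and Cd74. These genes chose the members: they were selected on UMI counts of these genes in the same cells, so the levels of these genes are a description and were not tested.

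All 7 samples were control MMTV-PyMT;HK2 f/f mice on the C57BL/6 background, labelled wild type, with 1 library per mouse and no replicate library. The polyoma middle T oncogene is driven by the MMTV promoter in mammary epithelium, and the floxed Hk2 alleles stayed intact because these mice carry no Cre transgene, although they were given tamoxifen. Collection was 3 months after a tumor could be felt. The mice are called mice 1, 2, 3, 4, 5, 7 and 8 here; sample titles carry the prefix CB for mice 1 to 4 and WT for mice 5, 7 and 8, and the meaning of the prefixes is not stated. With a single group, every comparison was made between cell sets within the same mice. Library totals ran from 1407356 to 4905989 UMIs over the deposited barcodes.

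Monocytes are made in bone marrow, enter tissue through the CCR2 chemokine receptor and can become macrophages, whereas neutrophils are short-lived granulocytes that store antimicrobial proteins and respond to CXCR2 ligands. S100a8 and S100a9 encode the calprotectin subunits that are abundant in neutrophils and in inflammatory monocytes. Tissue macrophages differ from both in making C1q, which starts the classical complement cascade, and in their large lysosomal compartment.

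A member held a median of 407 UMIs, from 245 to 5088, and a median of 301 genes. The C1q macrophages, cells with 3 or more C1q UMIs, had a median of 598 UMIs. At their C1q level there would be 5.91 C1q UMIs in a cell of the members' median depth. That level is raised by the choice of macrophages for C1q, so it cannot show how many members lack C1q through low depth. The edges of the rule were filled unevenly. The limit on Tyrobp and Fcer1g left out 104 cells that met the other limits, with a median of 815.5 UMIs. There were 15 members with a myeloid sum of 3 and 13 cells just outside with a sum of 2, and the limit on C1q left out 8 cells with 1 UMI and 12 with 2. The MHC class II sum was 0 in 79 members and 4 in 5 members, while 3 cells lay just outside it at 5. No member barcode was shared between libraries (5 cell barcodes were), and 10 members had a barcode within 1 base of another barcode of their library.

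The 7 mice gave 4, 5, 7, 29, 17, 41 and 10 members in the order of mice 1, 2, 3, 4, 5, 7 and 8, out of 2151, 1988, 1251, 4780, 1550, 2194 and 1133 cells. The shares of cells were 0.186, 0.252, 0.560, 0.607, 1.10, 1.87 and 0.883%, with a median of 0.607%. The exact binomial 95% intervals, which cover counting error only, ran from 0.0507 to 0.475% in mouse 1, which had the lowest share, and from 1.34 to 2.53% in mouse 7, which had the highest. The 4 mice with the CB prefix lay between 0.186 and 0.607%, and the 3 with the WT prefix between 0.883 and 1.87%, so the series did not overlap; no test was made. Per 100 C1q macrophages there were 3.85, 7.04, 4.90, 3.47, 9.39, 15.0 and 5.49 members, and here the series overlapped.

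**Figure D1:**
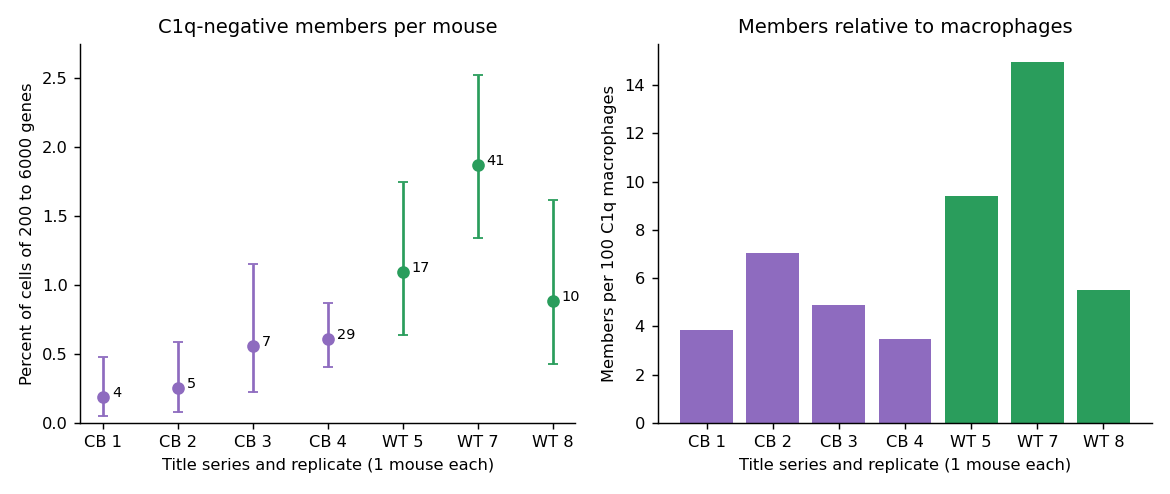
Members as a percent of cells (left; points with exact binomial 95% intervals and the number of members) and members per 100 C1q macrophages (right; bars) in each of the 7 mice, coloured by the prefix of the title. Mouse 7 is highest at 1.87% of cells and mouse 1 lowest at 0.186%.

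Among the genes of the rule, Lyz2, the lysozyme of monocytes and macrophages, was found in 92 members. Its level, in CPM (UMIs scaled to the same total for every sum), was 17018, 16698, 17296, 21374, 13807, 15078 and 9557 in mice 1, 2, 3, 4, 5, 7 and 8. The lowest level was that of mouse 8 and the highest that of mouse 4. Plac8, a small cysteine-rich protein of myeloid and lymphoid cells, was found in 73 members and Ccl6, a CC chemokine, in 44. S100a8 was at 0, 618, 25062, 280.0, 373, 7688 and 0 CPM in the same mice and S100a9 at 0, 825, 9178, 0, 373, 5998 and 0. The calprotectin genes varied more than Lyz2: mouse 3 stood highest for both, mouse 7 came next, and mice 1 and 8 held neither.

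The name was checked against markers outside the rule by their summed level. The 17 genes of a monocyte list summed to 6642 to 8716 CPM in the members of mice 4, 5, 7 and 8, to 1290.1 to 1551 in their C1q macrophages, to 3522 to 6362 in their MHC class II high C1q-negative cells and to 339 in epithelial cells of all mice. The 18 genes of a neutrophil list summed to 1587 to 3806, 379 to 770.5, 461 to 1733 and 85.9 CPM in the same order. Detection alone did not tell the sets apart, since 17 monocyte and 15 neutrophil genes had at least 1 UMI in members, macrophages and epithelial cells alike; Ly6g, Ngp and Camp were at 0 in members. A monocyte-list UMI was found in 101 members, a neutrophil-list UMI in 62, both in 58 and neither in 8. Of 10 mast cell or basophil genes 1 was detected. Of 10 eosinophil genes, Ear2 and Retnla were detected, with 21 UMIs in the members of all mice, and 8 were at 0, among them Siglecf, Prg2, Epx and Ccr3. The eosinophil list summed to 0 to 467 CPM in the members of mice 4, 5, 7 and 8 and to 522 to 3762 in their macrophages. Ly6c2, an antigen of classical monocytes that some T cells also carry, was found in 34 of 113 members (30.1%, 95% exact binomial interval 21.8 to 39.4%). The interval pools the members of all mice and leaves out variation between mice. Ly6c2 was found in 1.06% of C1q macrophages and in 1.18% of epithelial cells, which should lack it and which had a median of 993 UMIs, but also in 146 of 1007 T cells (14.5%). Chil3, a chitinase-like secreted protein, was found in 32.7% of members against 0.279%, 0.0179% and 0% of macrophages, epithelial cells and T cells, and Ccr2 in 39.8% against 12.7%, 0.339% and 2.98%.

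Members were then compared with the 1791 C1q macrophages of the same tumors, to describe how C1q-negative myeloid cells differ from the macrophages around them. UMIs were summed per mouse and cell set for mice 4, 5, 7 and 8, the 4 mice with at least 10 members, which hold 97 of them. The sums held 10714, 13399, 30176 and 4604 UMIs of members and 612161, 194682, 272072 and 124123 of macrophages. A quasi-likelihood fit in edgeR, blocked on the mouse, called 42 of 1266 tested genes outside the rule higher in members (3.32%) and 85 lower (6.71%) at an adjusted p under 0.05. Errors below (SE) are the absolute log2 fold change divided by the square root of the edgeR F statistic (n = 4 mice). The fit shares its estimate of spread between genes, so these are not standard errors taken over the 4 values of a gene. They can lie below counting error where a set held few UMIs. The p-values come from the same fit, and each mouse is also 1 library. The groups did not overlap for 97 of the 127 called genes, and for 188 of all tested. Because macrophages were chosen for C1q, genes expressed together with C1q differ through the choice of sets, and the test cannot set that apart. Macrophages were also not held to the members' epithelial, T-cell and MHC class II limits. In mice 4, 5, 7 and 8, 86, 24, 22 and 28 of 836, 181, 274 and 182 macrophages met them. Genes that go with these limits can differ through the choice of sets too. The count of higher genes was 68 without mouse 8, and that of lower genes 56 without mouse 7. In the mice with the WT prefix alone 45 genes were higher and 69 lower; mouse 4 is the only mouse tested with the CB prefix, so that series could not be fitted. With no filter on low counts, 37 genes were higher and 282 lower of 19011, the scaling moved the log2 fold changes of the same 1266 genes by a median of -0.84, and 17 of the 42 higher and all 85 lower genes kept the call. Values with no filter below are given as fitted and relative to that shift. The shift was taken over the same genes, so values relative to it return close to the main fold changes. They carry no test and do not show that a lost call holds.

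Monocyte genes led the genes that were higher in members. Chil3 was at 1027, 149, 2452 and 434 CPM in the members of mice 4, 5, 7 and 8 and at 0, 0, 14.7 and 24.2 in their macrophages (log2 fold change 7.05 ± 0.72 SE, edgeR adjusted p = 3.31e-05). Every member sum lay above every macrophage sum, and the macrophages of mice 4 and 5 held no Chil3 UMI. Hp, which encodes haptoglobin, was at 1493, 522, 1060.5 and 652 in members and 22.9, 5.14, 0 and 24.2 in macrophages (log2 fold change 6.07 ± 0.55 SE, edgeR adjusted p = 1.02e-05). The groups again did not overlap. Ifitm6, of the interferon-induced transmembrane family, was at 933, 597, 762 and 217 against 16.3, 5.14, 7.35 and 0 (log2 fold change 5.92 ± 0.40 SE, edgeR adjusted p = 8.71e-07). Ly6c2 was at 2147, 1567, 961 and 1086 against 34.3, 15.4, 14.7 and 56.4 (log2 fold change 5.47 ± 0.43 SE, edgeR adjusted p = 1.93e-06). These genes, too, could pass the filter through members, and with no filter they kept the call, with adjusted p of 7.01e-17, 4.44e-15, 5.83e-12 and 7.01e-17 in the same order. The near-identical neighbour of Ly6c2, Ly6c1, can share reads with it, as Chil4 can with Chil3, so these assignments are uncertain.

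The promoters of the monocyte genes with the largest differences are shown because each gene was higher in members, with that of Ifitm1, which separated the calprotectin-positive barcodes described last. Whether these genes vary together was not tested. The genes lie at chr3:106147554-106167564 (Chil3), chr7:141015699-141017924 (Ifitm6), chr15:75108158-75111970 (Ly6c2) and chr7:140967221-140969825 (Ifitm1) of GRCm38. Each line gives the 250 bases before the start of the gene from RefSeq (GRCm38.p6), 5′ to 3′ on the strand of the gene, for 4 of 5 genes looked up; Hp had no entry. The windows of Ifitm6 and Ifitm1 lie within the annotated span of the gene, which has a further start upstream. Capitals mark a match to GAGGAA, the letters searched for PU.1, the ETS factor of myeloid cells.
Chil3, chr3:106167565-106167814, minus strand: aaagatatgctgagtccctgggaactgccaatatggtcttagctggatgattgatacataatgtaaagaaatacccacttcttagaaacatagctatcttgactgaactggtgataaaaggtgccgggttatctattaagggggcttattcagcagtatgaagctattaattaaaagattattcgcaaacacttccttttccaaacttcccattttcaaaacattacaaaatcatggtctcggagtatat
Ifitm6, chr7:141016893-141017142, minus strand: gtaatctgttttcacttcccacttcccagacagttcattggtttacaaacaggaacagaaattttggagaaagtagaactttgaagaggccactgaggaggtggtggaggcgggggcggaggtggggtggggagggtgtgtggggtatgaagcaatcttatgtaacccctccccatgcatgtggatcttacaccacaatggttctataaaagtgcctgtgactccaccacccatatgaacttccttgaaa
Ly6c2, chr15:75111972-75112221, minus strand: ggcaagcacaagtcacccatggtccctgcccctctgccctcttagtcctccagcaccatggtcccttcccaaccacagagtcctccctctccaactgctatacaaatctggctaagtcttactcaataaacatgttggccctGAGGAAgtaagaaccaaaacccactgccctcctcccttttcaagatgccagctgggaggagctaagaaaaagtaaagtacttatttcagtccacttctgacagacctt
Ifitm1, chr7:140967826-140968075, plus strand: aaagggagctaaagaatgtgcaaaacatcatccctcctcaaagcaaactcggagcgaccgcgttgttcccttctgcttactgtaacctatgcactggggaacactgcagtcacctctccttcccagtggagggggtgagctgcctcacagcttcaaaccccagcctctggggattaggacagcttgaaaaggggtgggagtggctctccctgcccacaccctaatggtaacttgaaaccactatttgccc
GAGGAA was searched on both strands and was found once, in the Ly6c2 window, 108 bases before the start and on the same strand as the gene; 23.2% of all 32851 windows held it. The letters TTGCNNAA, searched for C/EBP factors on both strands, were in none of these windows and in 9.56% of all. A match is a description of letters and not a measured site.

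Other genes of the monocyte list were also higher. Ccr2 was at 653, 1567, 1127 and 434 CPM in members and 291, 396, 265 and 145 in macrophages (log2 fold change 1.55 ± 0.32 SE, edgeR adjusted p = 0.00638), with every mouse higher in its members. Without mouse 7 the adjusted p of Ccr2 was 0.0556, and with no filter its log2 fold change was 0.69 (adjusted p = 0.782; 1.54 relative to the shift). Thbs1, which encodes thrombospondin, had a log2 fold change of 3.13 (adjusted p = 0.0903 without the mouse block) and Gda, a guanine deaminase, one of 1.81. Of the 17 monocyte genes, 11 passed the filter on low counts, which a gene can pass through the set in which it is high, and 8 of these were higher. Their median log2 fold change was 3.13, beside -0.08 over all tested genes, of which 3.32% were higher. F13a1 and Ms4a4c, at 0.93 and 0.86, were not called. Cx3cr1, the fractalkine receptor of patrolling monocytes and of many macrophages, was lower in members (log2 fold change -2.98 ± 0.58 SE, edgeR adjusted p = 0.00428; without mouse 7 adjusted p = 0.077).

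Of the 18 neutrophil genes, only 3 passed the filter, since most had too few UMIs. Mmp8, neutrophil collagenase, was at 187, 149, 232 and 217 CPM in members against 4.90, 5.14, 7.35 and 8.06 in macrophages. These levels rest on 2, 2, 7 and 1 UMIs in members and 3, 1, 2 and 1 in macrophages of mice 4, 5, 7 and 8, so Mmp8 passed the filter only through its level in members; with no filter, where all 19011 genes were tested, its log2 fold change was 3.76 (edgeR adjusted p = 0.00116). Clec4e, the Mincle receptor for mycobacterial glycolipid, was at 560.0, 821, 530.2 and 869 against 26.1, 56.5, 51.5 and 88.6 (log2 fold change 3.41 ± 0.38 SE, edgeR adjusted p = 5.04e-05). In mouse 3, which was not tested, the neutrophil list summed to 18002 CPM in members. Among called genes of no fixed list, Gsr, glutathione reductase, was higher by 3.44 on the log2 scale, Slpi, a secreted protease inhibitor of neutrophils and epithelia, by 2.72, Napsa, an aspartic protease, by 2.49 and Adgre5, the adhesion receptor CD97, by 2.85.

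**Figure D2:**
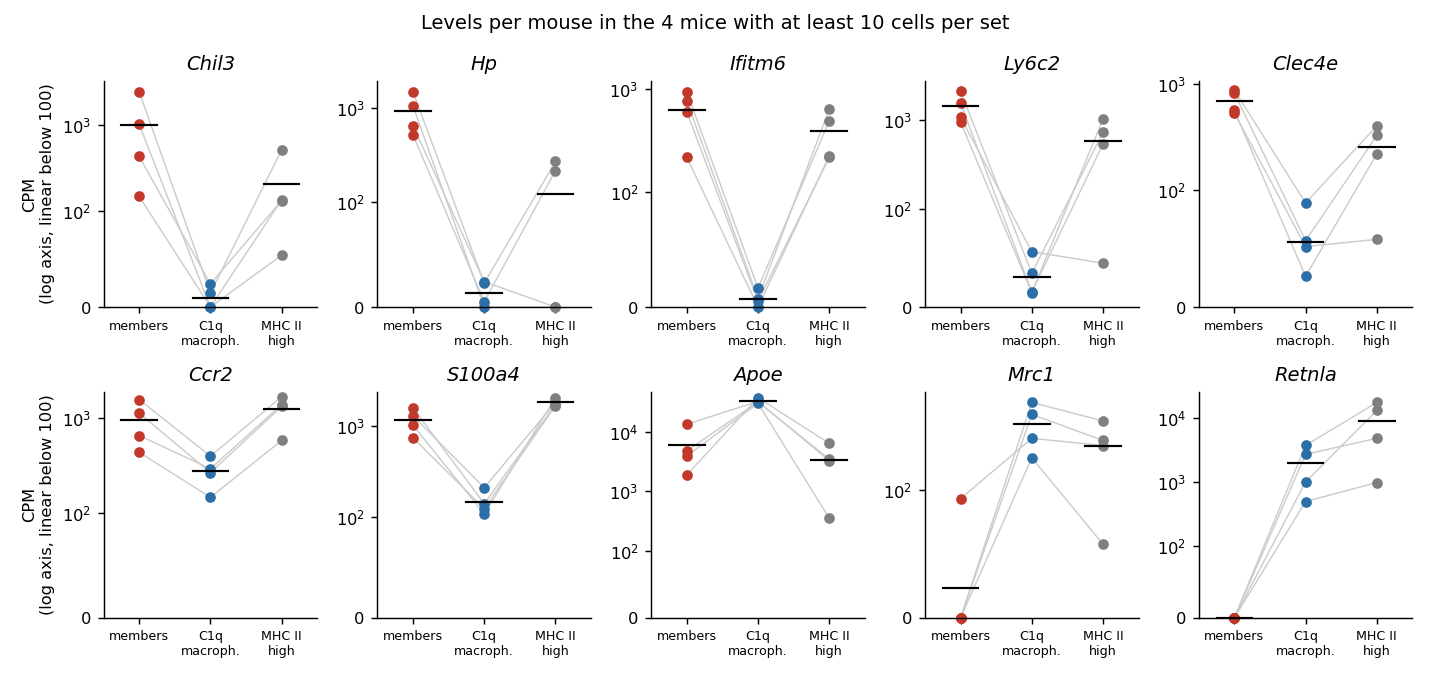
Levels of 10 genes in CPM (vertical axes, log scale that is linear below 100) in the members, the C1q macrophages and the MHC class II high C1q-negative cells of mice 4, 5, 7 and 8; each point is the sum of a cell set in 1 mouse, grey lines join the sets of a mouse and black bars are means. Chil3, Hp, Ifitm6, Ly6c2, Clec4e, Ccr2 and S100a4 lie higher in members than in macrophages of every mouse, and Apoe, Mrc1 and Retnla lie lower.

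S100 genes that the rule did not use were also called higher than in C1q macrophages. None of them was called higher than in the MHC class II high cells. S100a4, a calcium-binding protein of migrating cells, was at 1027, 746, 1591 and 1303 CPM in members and 108, 123, 139.7 and 209 in macrophages (log2 fold change 2.80 ± 0.34 SE, edgeR adjusted p = 1.13e-04). S100a6, S100a11 and S100a10 were higher by 1.64, 1.52 and 1.43 on the log2 scale. That made 4 of the 5 tested S100 genes, beside 3.32% of all tested genes, while S100a13, the fifth, had a log2 fold change of 0.97. Without mouse 7 the adjusted p of S100a6, S100a10 and S100a11 was 0.0552, 0.12 and 0.227, and without mouse 5 that of S100a11 was 0.245. With no filter these 3 genes were at 0.79, 0.56 and 0.66 (adjusted p = 0.411, 0.923 and 0.904), or 1.63, 1.41 and 1.51 relative to the shift. S100a10 was at 0.83 (adjusted p = 0.358) when members held no MHC class II UMI. S100a4 kept its call with no filter, at 1.92 (adjusted p = 0.00136).

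Of 6 interferon-stimulated genes tested, 3 were higher, all of the Ifitm family, whose proteins restrict virus entry. Over all tested genes 3.32% were higher, the share beside which the counts of this paragraph stand. Ifitm3 was at 4947, 3358, 3712 and 1520.4 CPM in members and 1077, 637, 929.9 and 628 in macrophages (log2 fold change 1.76 ± 0.29 SE, edgeR adjusted p = 0.00136), and Ifitm2 had a log2 fold change of 1.89. The adjusted p of Ifitm2 was 0.0586 without mouse 4 and 0.0699 without mouse 7. With no filter Ifitm3 was at 0.90 and Ifitm2 at 1.04 (adjusted p = 0.151 and 0.461), or 1.74 and 1.88 relative to the shift. Ifitm2, Ifitm3, Ifitm6 and Ifitm1 are neighbours on chromosome 7. Among adhesion genes 2 of 6 tested were higher, one of them Cd44, the hyaluronan receptor (log2 fold change 1.90; with no filter 1.04, adjusted p = 0.271). Lsp1, a leukocyte actin-binding protein, and Tmsb10, an actin-sequestering thymosin, were higher by 2.39 and 2.30, and they were the only 2 of 14 tested actin and motility genes called; with no filter the adjusted p of Lsp1 was 0.0604. Of the 6 genes of the phagocyte NADPH oxidase tested, which makes superoxide, Rac2 was called higher (log2 fold change 1.69 ± 0.38 SE, edgeR adjusted p = 0.0109; without mouse 4 adjusted p = 0.0542). Rac2 was at 0.87 with no filter (adjusted p = 0.595) and at 1.02 in the mice with at least 20 cells per set (adjusted p = 0.311). The membrane subunits Cybb and Cyba had log2 fold changes of -0.79 and -0.50 and were not called.

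**Figure D3:**
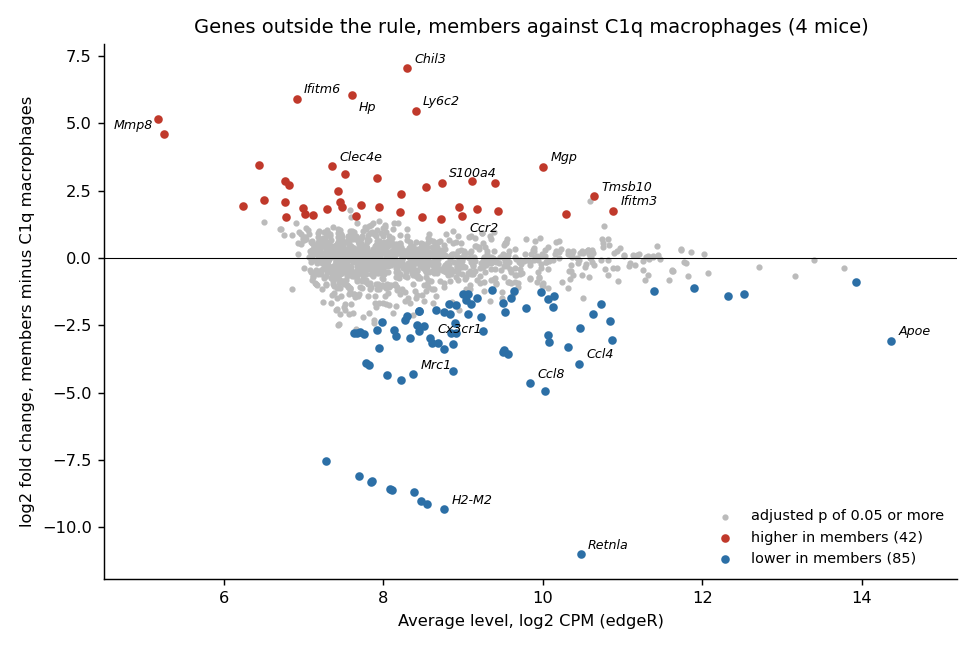
Log2 fold change of members against C1q macrophages (vertical axis) by average level in log2 CPM (horizontal axis) for the 1266 tested genes outside the rule, from mice 4, 5, 7 and 8; the 42 genes called higher and the 85 called lower are coloured. Chil3 stands highest at 7.05, and the group of genes at the bottom has no UMI in members, so that its fitted values depend on the prior count and are not bounds.

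Of the 18 macrophage genes, 12 passed the filter and 9 were lower in members, with a median log2 fold change of -2.71, beside 6.71% of all tested genes called lower. Apoe, the lipid carrier apolipoprotein E, was at 13254, 4776, 1889 and 3909.6 CPM in members and 32028, 31102, 36755 and 29720.5 in macrophages of mice 4, 5, 7 and 8 (log2 fold change -3.08 ± 0.42 SE, edgeR adjusted p = 2.70e-04). It was low and not absent, with a UMI in 57 of 113 members. Mrc1, the mannose receptor, was at 93.3, 0, 0 and 0 against 283, 457, 191 and 580.1 (log2 fold change -4.32 ± 0.87 SE, edgeR adjusted p = 0.00513). Csf1r, the receptor for the macrophage growth factor CSF1, was at 93.3, 224, 99.4 and 217 against 426, 462, 529 and 435 (log2 fold change -2.01 ± 0.45 SE, edgeR adjusted p = 0.0106; without mouse 7 adjusted p = 0.106). Lgmn, the lysosomal asparaginyl endopeptidase, fell by 2.61 on the log2 scale.

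The genes with the largest fitted decreases had 0 UMIs in the members of the 4 mice, so that only lower bounds can be given. These bounds were computed at 3 UMIs on UMIs pooled over the mice. They set the pairing by mouse aside and are not bounds within a mouse, since mouse 7 gave 30176 of the member UMIs. Retnla, a resistin-like protein of alternatively activated macrophages, held 2269, 524, 135 and 124 UMIs in the macrophages of mice 4, 5, 7 and 8 and was at least 49.8-fold lower in members, or 21.3-fold without mouse 4 and 30.0-fold without mouse 7. Members of mice 2 and 3, which were not tested, held 7 Retnla UMIs in 2 cells. The eosinophil list, which holds Retnla, summed to 1237 and 706 CPM in these members and to 1153 and 1842 in their macrophages. On that list the members of mouse 2 were not lower. Cd72, an inhibitory lectin receptor, was at least 9.30-fold lower, Fcrls, an Fc-receptor-like protein of macrophages, at least 6.98-fold, Hpgds, which makes prostaglandin D2, at least 5.99-fold, and C3ar1, the receptor for the complement fragment C3a, at least 4.08-fold. The remaining bounds were 11.1-fold for H2-M2, a nonclassical MHC class I gene, 8.71-fold for Zmynd15, 6.0-fold for Gatm, an enzyme of creatine synthesis, 4.94-fold for the adhesion molecule Cadm1 and 4.42-fold for the survival gene Bcl2a1d, which has near-identical paralogs. Without mouse 7 the bounds of these genes other than Retnla ranged from 1.91-fold (C3ar1) to 5.66-fold (H2-M2). In all, 11 genes called lower had no UMI in these members.

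The lysosomal list fell in part: 12 of 22 tested genes were lower and 0 higher, with a median log2 fold change of -1.22, beside 6.71% of all tested genes called lower. Hexa, a subunit of beta-hexosaminidase, was at 93.3, 149, 66.3 and 0 CPM in members and 541, 668, 415 and 435 in macrophages (log2 fold change -2.78 ± 0.49 SE, edgeR adjusted p = 0.00233). The tetraspanin Cd63 was at 840.0, 672, 497 and 0 against 2504, 2661, 1926 and 2457 (log2 fold change -2.35 ± 0.40 SE, edgeR adjusted p = 0.00145). In Cd63 the groups did not overlap. The summed list stood at 10869.6 to 21747 CPM in members and 30840.4 to 40332 in macrophages, so the groups did not overlap.

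Of 17 tested cytokine and chemokine genes, 4 were lower, 0 were higher and 13 were not called, with a median log2 fold change of -0.66; 6.71% of all tested genes were lower. Ccl8, a ligand for monocyte chemokine receptors, was at 0, 0, 99.4 and 0 CPM in members and 1821, 1541, 695 and 653 in macrophages (log2 fold change -4.66 ± 0.64 SE, edgeR adjusted p = 3.01e-04). Ccl4, an inflammatory chemokine, was at 93.3, 373, 133 and 0 against 1944, 1983, 3146 and 435 (log2 fold change -3.92 ± 0.46 SE, edgeR adjusted p = 8.40e-05). Ccl3 and Cxcl16 had log2 fold changes of -3.44 and -3.58; with barcodes of at least 100 genes Ccl3 was at -1.40 and was not called (adjusted p = 0.0658). Il1b, the inflammatory cytokine interleukin 1 beta, was not called, with 2707, 5672, 1524 and 2824 against 4358, 3914, 4322 and 2264 CPM (log2 fold change -0.65 ± 0.32 SE, edgeR adjusted p = 0.276). Among 10 receptors tested, Ccr2 was higher and Csf1r and Cx3cr1 lower, and each lost the call without mouse 7. Clec4e was the only one called of 8 pattern recognition receptors, C3ar1 of 3 complement genes, and Apoe and Mrc1 were the lower ones among 8 scavenger and lipid-handling genes. Over all tested genes 3.32% were higher and 6.71% lower. These 4 short lists are not read as differing from those shares.

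H2-DMa and H2-DMb1, the chaperone that loads peptide onto MHC class II, were both lower, at -2.72 and -3.18 on the log2 scale, and were the only MHC class II pathway genes outside the rule that passed the filter. The rule held members to few MHC class II UMIs, so this pair is not independent of the choice of members, and the adjusted p of H2-DMb1 was 0.0551 without mouse 7 and 0.0746 by DESeq2. Over all tested genes 6.71% were lower, and the next 2 lists, with 1 of 10 and 2 of 15 genes lower, are not read as differing from that share. Of 10 myeloid transcription factors tested, Maf, a factor of resident macrophages, was lower (log2 fold change -2.77 ± 0.75 SE, edgeR adjusted p = 0.0301). Its adjusted p was 0.0922, 0.0551 and 0.128 without mice 4, 5 and 7 in turn. Atf3 and Zfp36, an early transcription factor and a regulator of messenger RNA decay, had log2 fold changes of -1.26 and -1.41, 2 of 15 immediate early genes, and Atf3 had an adjusted p of 0.179 without mouse 4 and 0.147 without mouse 7. Zfp36 was at -0.51 with macrophages held to the limits of the members (adjusted p = 0.331), and its adjusted p was 0.112 without the mouse block.

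The study concerns hexokinase, which commits glucose to metabolism. Members held 4 UMIs of Hk1, 5 of Hk2 and 0 of Hk3 in all 7 mice, found in 3, 4 and 0 cells. Macrophages held 20, 111 and 32 UMIs. Macrophages totalled 1474117 UMIs and members 68046, so these raw counts do not compare levels. None of the 3 passed the filter, so their differences between the sets were not tested in the main fit. For Hk3 in members, 0 UMIs of 68046 allow up to 44.1 CPM. Of 8 tested genes of glucose transport and glycolysis none was called, with a median log2 fold change of 0.00. Gapdh stood at 93.3, 299, 663 and 0 CPM in members and 261, 349, 489 and 572 in macrophages, and the groups overlapped. None of 80 tested ribosomal protein genes was called either.

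**Figure D4:**
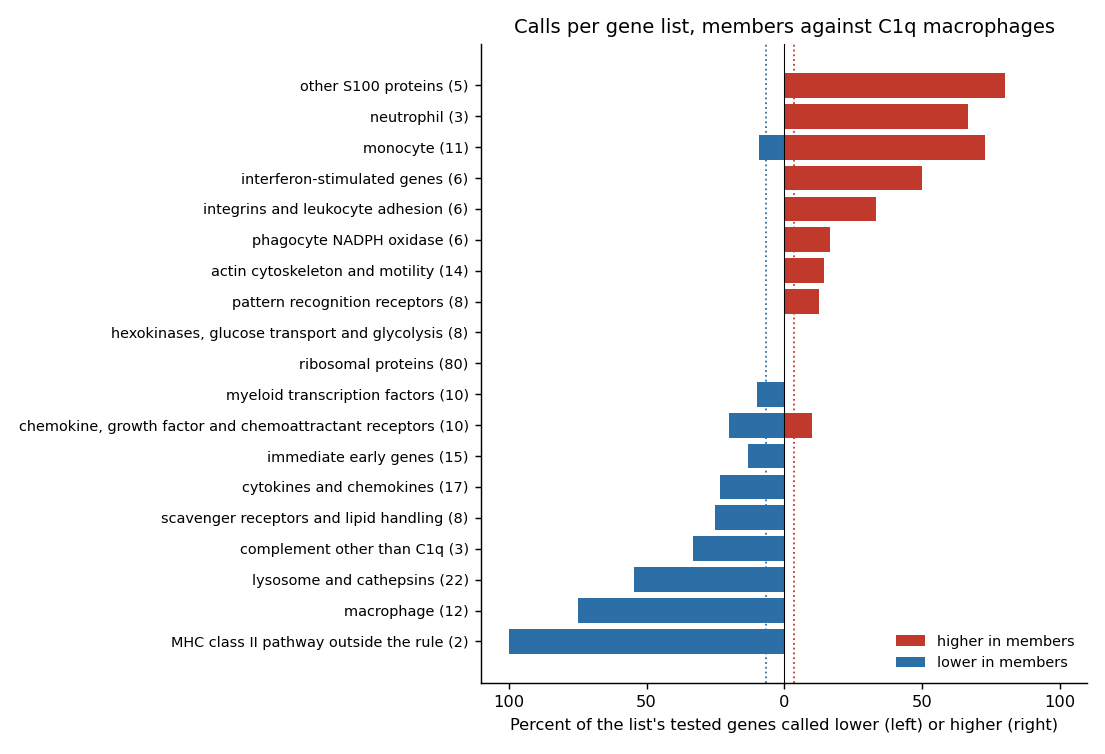
Percent of the tested genes of each list called higher (right) or lower (left) in members against C1q macrophages, with the number tested in brackets and dotted lines at 3.32 and 6.71%, the shares of all tested genes. Of the monocyte list 8 of 11 are higher, of the lysosomal list 12 of 22 lower, and of the ribosomal list none of 80 is called.

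RNA of fibroblasts moved with some of these calls. Members held 563 UMIs of the 7 fibroblast genes, and 553 of these lay in 5 members from 4 mice. In mice 4, 5, 7 and 8 the summed list ranged from 652 to 15509 CPM in members and from 164 to 3787 in macrophages; in mice 1, 2 and 3 the members were at 14295, 0 and 353. Mgp, matrix Gla protein, was called higher (log2 fold change 3.38 ± 0.75 SE, edgeR adjusted p = 0.0101), yet 181 of its 210 UMIs came from 1 member of mouse 7. Without the 5 members, Mgp had a log2 fold change of -1.55 and was not called, and 52 genes were higher and 111 lower. Col1a2 and Col3a1, the collagen genes called higher, then had too few UMIs to be tested. In the same setting Chil3, Hp, Ifitm6 and Ly6c2 had log2 fold changes of 7.25, 6.14, 6.03 and 5.57. In mice 4, 5, 7 and 8 the summed epithelial list ranged from 434 to 4853 CPM in members and from 575 to 9879.7 in macrophages, with Csn2, Cldn7 and Krt5 at 0 in members. Cp, which encodes ceruloplasmin, was the only called gene of that list, at -1.98 on the log2 scale, and 3 members held a PYMT UMI. Members were held to at most 1 epithelial UMI and macrophages were not, so neither the epithelial sums nor the call of Cp is independent of the choice of sets. Erythroid genes gave 94 UMIs, 54 of them in 1 member of mouse 7. In the same 4 mice T-cell and NK-cell genes outside the rule summed to 280.0 to 2154 CPM in members and 113 to 283 in macrophages, with Cd4, Cd8a, Cd2 and Ncr1 at 0 in members. Of the 13 dendritic-cell genes 7 had a UMI in members, with Flt3, Xcr1, Clec9a, Cd209a, Ccl22 and Ccl17 at 0. The list summed to 747, 224, 365 and 2172 CPM in members and 547, 704, 753 and 330.3 in macrophages of mice 4, 5, 7 and 8, and of 2 genes tested none was called. B-cell and endothelial genes had 11 and 3 UMIs in members, with Cd79a, Cdh5 and Kdr at 0. The part of these cell types in the other calls was not tested.

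The nearest cells that the rule left out were the 157 C1q-negative myeloid cells with 5 or more MHC class II UMIs, which otherwise met the same limits. In the same 4 mice, 261 genes outside the rule could be tested; 0 were higher in members (0%) and 3 lower (1.15%). DESeq2 also called 0 higher, and at an unadjusted p under 0.05 edgeR had 11 higher and 18 lower. Retnla held 632, 88, 17 and 290 UMIs in the MHC class II high cells of mice 4, 5, 7 and 8 and 0 in members. On UMIs pooled over the mice it was at least 212-fold lower, or 109-fold without mouse 4 and 124-fold without mouse 7. Pooling sets the pairing by mouse aside, so these are not bounds within a mouse. Mouse 7 gave 30176 member UMIs but only 17 of these Retnla UMIs. H2-DMa was at 187, 0, 166 and 217 CPM in members and 1088, 1408, 1383 and 1025 in these cells, and its call is not independent, since the sets were split on MHC class II UMIs alone. Mt1, a metal-binding metallothionein, was at 1027, 224, 398 and 869 CPM in members and 1903, 1462, 1498 and 4324 in the MHC class II high cells (log2 fold change -1.76 ± 0.30 SE, edgeR adjusted p = 0.00408), and its adjusted p was 0.06 with all 7 mice and 0.0677 without the mouse block. Ly6c2 was at 734, 542, 1037 and 44.6 CPM in these cells and 2147, 1567, 961 and 1086 in members, and was not called (log2 fold change 1.19 ± 0.38 SE, edgeR adjusted p = 0.193). Ccr2 was not called either, at 1387, 1679, 1325 and 579.6 against 653, 1567, 1127 and 434 (log2 fold change -0.34 ± 0.25 SE, edgeR adjusted p = 0.735). These sets gave few counts, and an absent call does not show that they are alike. Without mouse 5 or without mouse 7, 3 genes were higher and 5 lower.

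Members were also described by calprotectin. There were 12 members with 3 or more UMIs of S100a8 plus S100a9, 5 with 1 or 2, and 96 with none. S100a8 alone was found in 15.0% of members, 8.61% of epithelial cells and 1.45% of macrophages, at median depths of 407, 993 and 598 UMIs. The 1 positive member of mouse 4 held a PYMT UMI, no neutrophil-list UMI and 54919.9 CPM of the epithelial list. None of the 12 positive members held a UMI of Ly6c2, Chil3 or Ccr2, against 31, 34 and 43 of the 96 without calprotectin. Over the whole monocyte list, 9 of the 12 and 87 of the 96 held a UMI, and the list summed to 3019 and 8402 CPM. Retnlg, a resistin-like protein of neutrophils, was found in 6 of 12 and 0 of 96. Il1r2, the decoy receptor for interleukin 1, was found in 8 and 6, and G0s2, an inhibitor of lipolysis, in 8 and 3. Il1b was found in 10 of 12 and 39 of 96. At least 5 neutrophil-list UMIs were held by 10 of the 12 and by 0 of the 96. Lyz2 and Plac8, which the rule used, were found in 3 and 1 of the 12 and in 84 and 68 of the 96; a cell without calprotectin had to reach the myeloid sum through Lyz2, Ccl6 or Plac8. The positive members numbered 0, 1, 3, 1, 1, 6 and 0 in mice 1, 2, 3, 4, 5, 7 and 8. No mouse held 10 of them, so no test was made within members.

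Barcodes under 200 genes were not counted as cells, and most of those that met the sums of the rule held calprotectin. Of 21950 such barcodes, 131 met these sums, and 100 of these (76.3%) were positive, against 12 of 113 members (10.6%). They numbered 3, 4, 32, 10, 21, 27 and 3 in mice 1, 2, 3, 4, 5, 7 and 8, so each mouse gave some and mouse 3 the most. They held a median of 155 UMIs and 111 genes, with a median of 13 calprotectin UMIs, 9.30% of their UMIs. A neutrophil-list UMI was present in 95 of the 100, and all 18 neutrophil genes were detected. Ly6g, the neutrophil surface antigen, had 4 UMIs, and Ngp and Camp, granule proteins made early in neutrophil development, had 23 and 12. A barcode with few UMIs reaches the myeloid sum only through abundant transcripts, and the rule used both calprotectin genes, so these shares were not tested. Free RNA in a droplet without a cell was not told apart from a small cell here.

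**Figure D5:**
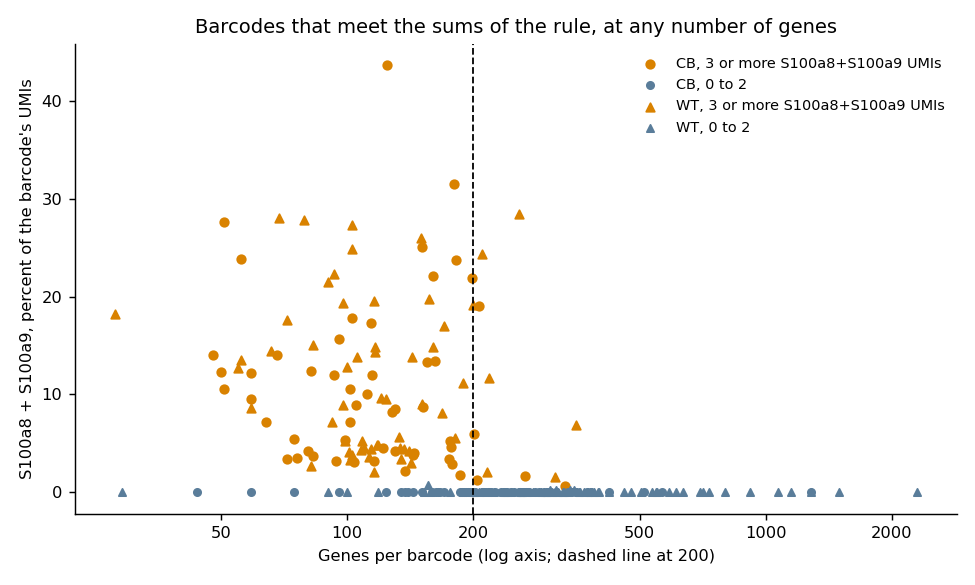
UMIs of S100a8 and S100a9 as a percent of the UMIs of a barcode (vertical axis) by its number of genes (horizontal axis, log scale) for all barcodes that meet the sums of the rule; colour marks 3 or more calprotectin UMIs, circles are mice with the CB prefix, triangles those with the WT prefix, and the dashed line is at 200 genes. Left of the line 100 of 131 barcodes hold 3 or more calprotectin UMIs, and right of it 12 of 113.

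With no lower limit on genes, an analysis added after the data were seen, calprotectin-positive and calprotectin-negative barcodes could be compared in mice 3, 4, 5 and 7. The sets were split on genes of the rule, and negative barcodes could reach the myeloid sum only through Lyz2, Ccl6 or Plac8, so genes that go with Lyz2, Ccl6 or Plac8 can differ through the choice of sets, which the test does not set apart. Of 63 tested genes outside the rule, 13 were higher in positive barcodes (20.6%) and 24 lower (38.1%). Calls made up most of the tested genes, so the usual assumption of scaling that most genes do not change does not hold here, and the directions are relative to the other tested genes, whose median log2 fold change was -0.32. Ifitm1, another Ifitm gene, was at 5468, 9187, 6398 and 9447 CPM in positive and 0, 77.0, 0 and 37.8 in negative barcodes (log2 fold change 7.57 ± 0.54 SE, edgeR adjusted p = 8.30e-16). Il1r2 was at 4218, 3743, 6644 and 4008 against 0, 77.0, 189 and 0 (log2 fold change 6.18 ± 0.65 SE, edgeR adjusted p = 1.28e-10). In both genes every positive sum lay above every negative sum. The groups did not overlap for 28 of the 37 called genes, and for 32 of all 63 tested. G0s2, Slpi and Il1b were higher by 5.47, 3.62 and 3.39 on the log2 scale. Ifitm1, Il1r2 and G0s2 held 154, 93 and 79 UMIs in positive and 2, 3 and 5 in negative barcodes, so they could pass the filter through positive barcodes. With no filter their edgeR adjusted p was 7.13e-12, 1.47e-07 and 1.22e-05. Epithelial RNA moved with this split: the epithelial list summed to 4374, 16332, 1722 and 7014 CPM in positive and 1752, 3386, 1794 and 2531 in negative barcodes of mice 3, 4, 5 and 7, higher in positive barcodes of mice 3, 4 and 7. Its part in the difference of Slpi, which epithelia also make, was not tested. Crip1, a small zinc-binding protein, held 0 UMIs in positive barcodes. On UMIs pooled over the mice Crip1 was at least 24.8-fold lower, or 12.7-fold without mouse 7. Ctss, the cathepsin S of antigen-presenting cells, had a log2 fold change of -2.84. Of 19 ribosomal protein genes tested, 17 were lower, among them Rpl10 (log2 fold change -2.34 ± 0.59 SE, edgeR adjusted p = 0.00104) and Rpl32 (log2 fold change -2.26). In the mice with the CB prefix alone these were at -2.07 and -1.30 (adjusted p = 0.144 and 0.384). The sets also differed in size, since 100 of the 112 positive barcodes had under 200 genes while 96 of the 126 negative ones had 200 or more; the part of barcode size in these calls was not tested. Upper-quartile scaling gave 11 higher and 29 lower and moved the tested genes by a median of -0.43, no filter gave 20 and 78 and moved them by -0.96, and DESeq2 gave 11 and 17. With no filter, 6 of the 13 higher and all 24 lower genes kept the call, and 1 of the 13 had the opposite sign. Without mouse 3, 23 genes were higher; without mouse 5 and without mouse 7, 12 and 10 were lower.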

How the data were processed

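Tumors of 7 mice were dissociated with collagenase, depleted of red cells and filtered, and 1 Drop-seq library was made per mouse. The deposited matrices hold UMI counts per gene and barcode, whole numbers that the authors did not normalize; 37000 barcodes are listed in all. The methods name alignment to mm10 with the PyMT sequence added, while the submitters' processing notes list STAR and FastQC beside the human builds GRCh37.p13 and hg19; the matrices hold mouse symbols. Mitochondrial genes, present in 2 matrices, were dropped, and genes missing from a matrix were set to 0. No doublet caller was run.

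Members, lists and comparisons were chosen with earlier results of these data known. Counts were summed per mouse and cell set, for mice with at least 10 cells in each set, and fitted with edgeR 4.0.16 (R 4.3.3): TMM scaling, filterByExpr, mouse as block, quasi-likelihood test, Benjamini-Hochberg adjustment over tested genes outside the rule, threshold 0.05. Library sizes were kept whole after the filter, a choice made after the first fits. The scripts were tested on simulated data. Levels (CPM) are UMIs scaled to the total of all UMIs of a set. Genes named are markers, rule genes, the 10 with the largest change in each direction (5 for calprotectin) among called genes that changed the same way in every mouse, up to 4 per list by adjusted p, and the hexokinases; Gsr, Slpi, Napsa, Adgre5, Gapdh, Cp and Col1a2 were partly chosen after their values were seen. Ribosomal protein kinases (Rps6k) and Rps19bp1 were left out of the 91 ribosomal protein genes. DESeq2 1.42.0, other scalings, filters and member limits were the alternatives. Intervals and floors (3 UMIs) cover counting error only, and fold bounds use UMIs pooled over the mice compared. A few genes that met these rules are not reported here.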

Additional observations from a re-analysis of the deposited data

Results flagged for a closer look

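In 3 results 1 of the 4 mice lay far from the others by Dixon's criterion, which chance alone meets in about 1 of 20 groups; 67 values were examined. The values are log2 differences per mouse with 0.5 UMI added. For Cd63, members against C1q macrophages, mouse 8 stood apart at -4.50. For Ifitm6 in the same comparison it was mouse 4, at 5.84. For Il1r2, calprotectin-positive against calprotectin-negative barcodes, it was mouse 7, at 7.75. In each gene all 4 mice had the same sign.

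A signal was also present in barcodes that were not counted as cells: 100 barcodes under 200 genes met the sums of the rule and held 3 or more UMIs of S100a8 and S100a9.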

How the results depend on the processing

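Of the 48 named genes called against C1q macrophages, 18 lost the call in at least 1 alternative and 30 kept it wherever they were fitted; 60 of the 960 pairs of gene and alternative could not be fitted, and 9 of the 14 genes fitted in all 20 alternatives kept the call in all. Mgp alone reversed, to -1.01 at a myeloid sum of at least 5 and to -1.55 without members of 5 or more fibroblast UMIs. Leaving out each mouse in turn gave 30 to 68 higher and 56 to 121 lower genes. The counts of higher genes moved to 81 without the deepest member of each mouse, 24 with macrophages held to the members' limits, 71 at a myeloid sum of at least 5 and 73 at 100 genes per barcode; those of lower genes moved to 140, 48 and 136 in the first 3 of these, 282 with no filter on low counts (where the 37 higher genes held 17 of the original 42) and 141 with no MHC class II UMI in members. With macrophages held to the members' limits, only 8 of the original 42 higher and 30 of the original 85 lower genes were tested. Of these, 7 and 29 kept the call. Without the mouse block, 32 genes were higher and 72 lower. Against the MHC class II high cells, leaving out each mouse gave 0 to 3 higher and 3 to 5 lower; no filter gave 12 and 11, all 7 mice 1 and 1, and leaving out the deepest members 2 and 5. For calprotectin at any number of genes, leaving out each mouse gave 11 to 23 higher and 10 to 28 lower. No filter gave 20 (which held 6 of the original 13) and 78, and the WT prefix alone 37 higher. The CB prefix alone gave 6 lower, which held 4 of the original 24, of which 18 were tested there. The median share of members was 1.92% with no MHC class II limit, 0.252% at 500 or more genes per barcode, and 0.583 to 0.745% leaving out each mouse. The cause of these shifts was not tested, apart from filters that change which genes or cells enter. The settings of all 7 mice, 100 genes, deepest members, fibroblast UMIs and barcodes within 1 base, and the calprotectin comparison, were chosen after seeing the data. At least 500 genes per barcode, the CB prefix alone for the first comparisons, and the comparison within members could not be fitted with at least 10 cells per set. Depth limits the tests: sums of members held as few as 4604 UMIs, and 1266 and 261 genes passed the filter.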
